A study of Mus musculus with 9 samples.

Results

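The genes described here are 9 G protein-coupled receptors through which myeloid cells sense inflammatory attractants, lipids, proteases and metabolites: Fpr1, Fpr2, C5ar1, C3ar1, Ptafr, Ltb4r1, F2rl1, Gpr84 and Hcar2. They were taken by gene symbol and are 9 of the 26770 gene rows of the table. RNA sequencing gave their mRNA levels in monocytes that came from spleens of wild-type (WT) mice, in 9 libraries that fell into 3 groups of 3. The untreated group received the solvent DMSO, at dilutions that the sample labels give as 1 in 1000, 1001 and 1002. The LPS group received a low dose of lipopolysaccharide, a component of the bacterial outer membrane, at 40 ng/ml for 5 hours. In the third group LPS priming was followed by the aldehyde octanal at 20 µM, for 18, 19 and 20 hours in replicates 1, 2 and 3 by the sample labels. The series text gives 1 in 1000 and 18 hours for these groups, and the replicates of a group are treated here as a single condition. Time in culture and solvent are not stated to be equal between groups, so an effect of octanal and one of longer culture cannot be told apart. The labels used here state no age, sex or strain of the mice, and do not say whether replicates came from separate animals or cultures. The p-values therefore measure only the spread between these libraries, which may be technical.

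Chemoattractant receptors of this kind couple mainly to G proteins of the Gi class, whose released beta-gamma subunits activate phosphoinositide 3-kinase gamma and phospholipase C beta and steer the cell up a gradient. Formyl peptide and complement receptors read bacterial products, damaged mitochondria and complement activation. Receptors for platelet-activating factor and leukotriene B4 read lipids that leukocytes make themselves. Gpr84 and Hcar2 read medium-chain fatty acids and ketone bodies, and F2rl1, also called PAR2, is switched on when a protease cuts its outer end.

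Total counts were 29594291 to 38388421 per library, and all 9 receptors passed the filter on low counts, as members of the 15447 genes tested. The markers of classical monocytes were present in every group, and none of the 9 was at 0. The labelled cells were not pure by their RNA. The 14 neutrophil markers summed to 13600 to 26600 counts scaled to library size (CPM) in the untreated libraries, to 1860 to 2320 in the LPS libraries and to 6000 to 13400 in the LPS with octanal libraries. The 9 classical monocyte markers summed to 4500 to 8280, 2220 to 2440 and 3840 to 5030 CPM in the same order, and the 12 macrophage markers to 1540 to 2630, 470 to 803 and 874 to 1050 CPM. The 7 T cell markers went the other way, with 113 to 511, 894 to 1110 and 548 to 809 CPM. The macrophage sum hides unlike changes of its genes. From LPS to LPS with octanal 4 of the 12 had a positive change, with a median log2 fold change of -0.48, although the sum was higher. From untreated to LPS 3 of the 12 had a positive change, with a median of -2. Fewer cells of a type and less RNA per cell cannot be told apart in such bulk samples. The part of these marker shifts in the receptor values below was not tested.

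The stretches before the RefSeq start sites of 5 of the receptor genes are shown first. Fpr1 and Gpr84 are shown because their mRNA moved together (Pearson's r of log2 CPM 0.97 over the 9 libraries), Fpr2 because it neighbours Fpr1 and moved differently after LPS, Ltb4r1 because it had the largest fall of the 9, and C3ar1 because it alone was about equally low in both treated groups. Each is the run of 250 bases before the RefSeq start site, 5′ to 3′ on the gene's strand, from the GRCm38.p6 assembly, and capitals mark motif matches. The RefSeq and GENCODE M21 annotations place some start sites differently. In GENCODE the Gpr84 gene reaches up to base 103310612, so most of the printed Gpr84 run lies inside that gene. The Fpr1 and C3ar1 runs overlap their GENCODE genes only at the edge.
Fpr1, chr17:17883940-17884189, minus strand: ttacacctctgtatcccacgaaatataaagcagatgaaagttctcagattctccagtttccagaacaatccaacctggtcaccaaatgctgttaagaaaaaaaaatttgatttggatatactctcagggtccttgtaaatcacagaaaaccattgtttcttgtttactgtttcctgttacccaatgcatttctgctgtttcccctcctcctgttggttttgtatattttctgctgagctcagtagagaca
Fpr2, chr17:17887574-17887823, plus strand: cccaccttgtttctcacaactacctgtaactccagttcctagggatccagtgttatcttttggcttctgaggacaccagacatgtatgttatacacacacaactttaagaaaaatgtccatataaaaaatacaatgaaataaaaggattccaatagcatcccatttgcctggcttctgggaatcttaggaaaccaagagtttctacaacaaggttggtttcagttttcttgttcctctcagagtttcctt
Gpr84, chr15:103310439-103310688, minus strand: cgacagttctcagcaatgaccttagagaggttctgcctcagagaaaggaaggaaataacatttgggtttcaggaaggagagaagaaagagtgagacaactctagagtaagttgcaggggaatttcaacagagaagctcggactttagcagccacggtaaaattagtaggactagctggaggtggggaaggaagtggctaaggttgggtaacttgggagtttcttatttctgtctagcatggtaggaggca
Ltb4r1, chr14:55765712-55765961, plus strand: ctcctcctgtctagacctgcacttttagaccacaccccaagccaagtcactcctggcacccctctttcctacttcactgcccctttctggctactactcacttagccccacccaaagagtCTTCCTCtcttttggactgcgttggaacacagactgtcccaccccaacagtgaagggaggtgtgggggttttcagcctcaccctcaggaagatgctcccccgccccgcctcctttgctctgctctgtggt
C3ar1, chr6:122856158-122856407, minus strand: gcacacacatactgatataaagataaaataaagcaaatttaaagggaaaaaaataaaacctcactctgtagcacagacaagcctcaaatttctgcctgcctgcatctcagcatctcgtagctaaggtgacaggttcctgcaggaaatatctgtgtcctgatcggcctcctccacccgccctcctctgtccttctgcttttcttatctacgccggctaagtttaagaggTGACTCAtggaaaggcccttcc

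Promoters of 7 of the 9 receptors were matched by symbol, and 6 motifs were searched on both strands in the same 250 bases: AP-1 as TGANTCA, the cyclic AMP response element as TGACGTCA, the interferon-stimulated response element by its consensus, C/EBP as TTGCNNAA, PU.1 as GAGGAAG, and kappaB by its consensus. Of the 42 combinations of motif and promoter, 2 held a match. The AP-1 letters stood in C3ar1 from 22 to 16 bases before the start site, and they stand in 6.75% of 32851 mouse promoters of that length. The PU.1 letters stood in Ltb4r1 on the opposite strand, which the printed run shows as CTTCCTC. They lay from 130 to 124 bases before the start site, and such letters stand in 10.6% of promoters. No motif overlapped another, and the absence of a match says only that these letters are not in this window. The Gpr84 and C5ar1 windows lie mostly inside these genes as GENCODE M21 annotates them. The Fpr1 and Fpr2 windows held 1 and 0 CpG dinucleotides and 38.4% and 38.8% G and C, against a median of 6 and of 52.4% over all promoters.

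Fpr1 and Fpr2 lie head to head on chromosome 17 of GRCm38, Fpr1 from 17876471 to 17883940 on the minus strand and Fpr2 from 17887824 to 17893952 on the plus strand, with 3883 bases between them. All 9 genes are annotated as protein-coding in GENCODE M21. In 7 of them the coding sequence lies in 1 exon, while C5ar1 and F2rl1 have 2 coding exons, and the encoded proteins are 341 (Ptafr) to 477 (C3ar1) residues long. Of the 50-base stretches in Fpr2 transcripts, 31.5% also occur in transcripts of other genes, mainly the predicted gene Gm5966 and Fpr3. Fpr3 itself had 194 counts over the 9 libraries against 80827 for Fpr2, and Gm5966 is not among the gene rows under that symbol. How reads of shared stretches were assigned is not stated, so the Fpr2 value is uncertain by whatever share they make up. Of Gpr84, 39.5% of exon bases overlap the antisense gene Gm49482. Whether counting used strand is not stated, so reads of that pair cannot be told apart, and Gm49482 was not analysed here.

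Per gene length, in the fragment counts scaled to gene length and library size (FPKM) that the authors deposited, the 9 receptors spanned a wide range and changed places between groups. In untreated cells Ptafr (180 ± 24.5 FPKM, SD, n = 3), Hcar2 (172 ± 118) and Fpr2 (165 ± 45.0) had the highest levels, and their libraries overlapped. Fpr1 (66.2 ± 14.4 FPKM) and C5ar1 (55.5 ± 13.4) overlapped each other, and the highest Fpr1 library also overlapped the lowest Hcar2 library. Ltb4r1 followed at 23.3 ± 8.87 FPKM. C3ar1 (7.57 ± 2.00), Gpr84 (4.03 ± 0.861) and F2rl1 (3.68 ± 3.34) were lowest, and F2rl1 overlapped both of the others. In LPS libraries Fpr1 had the highest level, 294 ± 43.9 FPKM, above every library of Hcar2 (190 ± 47.0) and Fpr2 (169 ± 24.7), which overlapped each other. Ptafr stood at 97.5 ± 10.4 FPKM, and F2rl1 (26.0 ± 10.4), Gpr84 (16.1 ± 2.06) and C5ar1 (15.4 ± 2.33) overlapped. C3ar1 (3.07 ± 1.95 FPKM) and Ltb4r1 (0.712 ± 0.257) were lowest and did not overlap. In LPS with octanal libraries the order was Fpr1 (525 ± 68.4 FPKM), Fpr2 (362 ± 69.5) and Hcar2 (338 ± 93.7), then Ptafr (163 ± 18.4), Gpr84 (43.6 ± 13.5) and C5ar1 (38.6 ± 9.23), then F2rl1 (10.1 ± 3.37), Ltb4r1 (3.82 ± 2.33) and C3ar1 (2.66 ± 0.573). In that group Fpr2 and Hcar2, Gpr84 and C5ar1, and Ltb4r1 and C3ar1 overlapped.

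**Figure D1:**
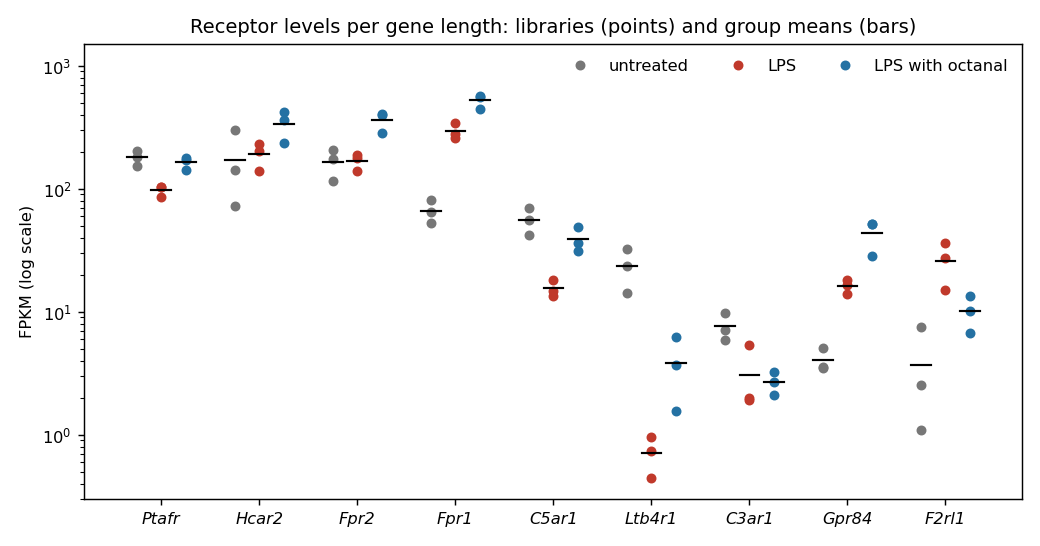
Deposited FPKM of each receptor (log axis) in every library (points) with group means (bars), genes ordered by their untreated mean. Fpr1 stands the fourth in untreated libraries (66.2 FPKM) and the highest in both treated groups (294 and 525), while Ltb4r1 falls from 23.3 to 0.712 FPKM in LPS libraries.

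LPS against untreated cells asks how the cells respond to a low dose of LPS. The receptor set split: Fpr1, Gpr84 and F2rl1 rose, Ltb4r1, C5ar1, C3ar1 and Ptafr fell, and Fpr2 and Hcar2 did not pass the test. By edgeR's quasi-likelihood test on the counts of all 9 libraries, adjusted over 15447 genes, 7 of the 9 were called at an adjusted p under 0.05, against 32.8% of all genes tested. Of all genes 15.2% were called higher and 17.6% lower, so that 46.4% of the calls were higher, while on log2(FPKM + 1) with limma 59.8% were. The median log2 fold change of the 9 was -0.04, beside 0.01 over all genes tested. The libraries of both groups did not overlap for the same 7 receptors, and 51.5% of all genes showed no overlap.

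Fpr1 (ENSMUSG00000045551), the receptor for N-formylated peptides of bacteria and mitochondria, stood at 118, 72.4 and 99.1 CPM in the untreated and at 372, 357 and 461 CPM in the LPS libraries. Every LPS library was thus above every untreated library, with a log2 fold change of 2.04 (SE 0.208, edgeR adjusted p = 6.8e-04). Fpr2 (ENSMUSG00000052270), which binds formyl peptides and also annexin A1 and cathelicidin, stood at 236, 125 and 205 CPM in untreated and 153, 206 and 192 in LPS libraries. These groups overlapped, and the log2 fold change was -0.04 with a 95% interval of -0.61 to 0.54 (edgeR adjusted p = 0.92).

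Since both genes were measured in the same libraries, their ratio was also taken within each library. On FPKM, Fpr1 was at 0.407 ± 0.0397 of Fpr2 in untreated libraries (range 0.374 to 0.451) and at 1.76 ± 0.317 in LPS libraries (1.40 to 1.98). In LPS with octanal libraries the ratio was 1.47 ± 0.108 (1.39 to 1.59). Fpr2 was thus the more abundant transcript in each untreated library and Fpr1 in each treated library. The ratios of treated and untreated libraries did not overlap, and no test was made of them, since 3 libraries against 3 cannot give an exact p below 0.10.

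**Figure D2:**
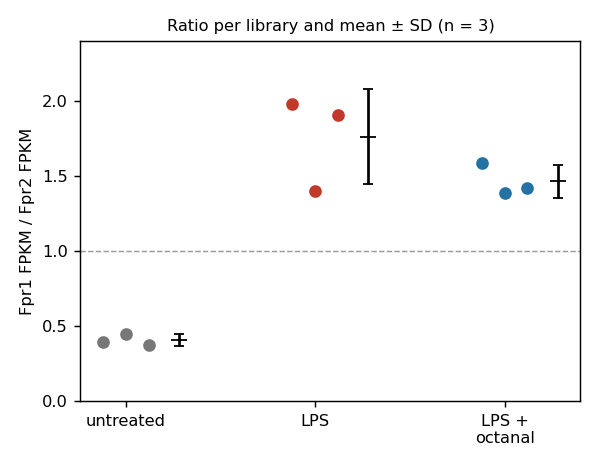
Ratio of Fpr1 to Fpr2 FPKM in each library (points) with the mean and SD of each group, and a dashed line at equal levels. The untreated libraries lie between 0.374 and 0.451 and the 6 treated libraries between 1.39 and 1.98.

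Of the metabolite receptors, Gpr84 rose and Hcar2 did not pass. Gpr84 (ENSMUSG00000063234, chr15:103308235-103310612) had 9.55, 6.42 and 6.98 CPM in the untreated and 28.6, 32.1 and 24.3 CPM in the LPS libraries. These groups were well apart, with a log2 fold change of 1.89 (SE 0.269, edgeR adjusted p = 0.0020). Hcar2 (ENSMUSG00000045502, chr5:123863570-123865499), the receptor for the ketone body beta-hydroxybutyrate and for niacin, varied widely among untreated libraries, with 154, 288 and 670 CPM, and had 268, 408 and 448 CPM after LPS. The untreated libraries enclosed the LPS libraries, and the 95% interval of the log2 fold change ran from -1.06 to 1.09. Without untreated replicate 3, its highest library, the value went from 0.02 to 0.76 (edgeR adjusted p = 0.16).

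F2rl1 (ENSMUSG00000021678, chr13:95511732-95525227) had the largest rise on the log2 scale. It stood at 3.25, 21.3 and 7.97 CPM in untreated and at 99.1, 42.7 and 75.7 CPM in LPS libraries. No libraries overlapped, yet both groups were spread out, and the log2 fold change was 2.75 (SE 0.629, edgeR adjusted p = 0.013). Without untreated replicate 2, the highest of its group, it went to 3.66 (adjusted p = 0.0025 by edgeR).

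Ltb4r1 (ENSMUSG00000046908, chr14:55765962-55768494), the high-affinity receptor for leukotriene B4, fell most. Untreated libraries had 49.2, 20.9 and 37.7 CPM, from 1830, 638 and 1065 counts, and LPS libraries had 1.36, 1.06 and 0.636 CPM, from 53, 34 and 23 counts. The log2 fold change was -5.13 (SE 0.591, edgeR adjusted p = 0.0010), with a 95% interval of -6.47 to -3.79. On log2(FPKM + 1) it was -3.77, a scale that understates changes of low values.

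C5ar1 (ENSMUSG00000049130, chr7:16246743-16259540), the receptor for the complement fragment C5a, went from 155, 112 and 202 to 34.7, 38.8 and 46.5 CPM. Each LPS library was below each untreated one, and the log2 fold change was -1.96 (SE 0.253, edgeR adjusted p = 0.0014). C3ar1 (ENSMUSG00000040552, chr6:122847138-122856161), which binds the fragment C3a, had 46.3, 31.9 and 29.0 CPM in untreated libraries and 23.1, 8.52 and 8.69 CPM in LPS libraries. LPS replicate 1 stood apart from the other 2. With all libraries the log2 fold change was -1.41 (SE 0.398, edgeR adjusted p = 0.027), and without LPS replicate 1 it was -2.07. The C3ar1 call was lost without untreated replicate 1 (-1.21, edgeR adjusted p = 0.075), LPS replicate 2 (-1.22, 0.070) or LPS replicate 3 (-1.19, 0.078).

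Ptafr (ENSMUSG00000056529, chr4:132564067-132582683), the receptor for platelet-activating factor, was the most counted of the 9 in untreated cells. It had 729, 584 and 848 CPM there and 314, 393 and 379 CPM after LPS. Again the groups did not overlap, with a log2 fold change of -0.99 (SE 0.175, edgeR adjusted p = 0.0046). The summed neutrophil, classical monocyte and macrophage markers given above were lower in the same LPS libraries as these 4 receptors, and the T cell markers were higher there. The 3 receptors that rose did so in those same libraries.

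**Figure D3:**
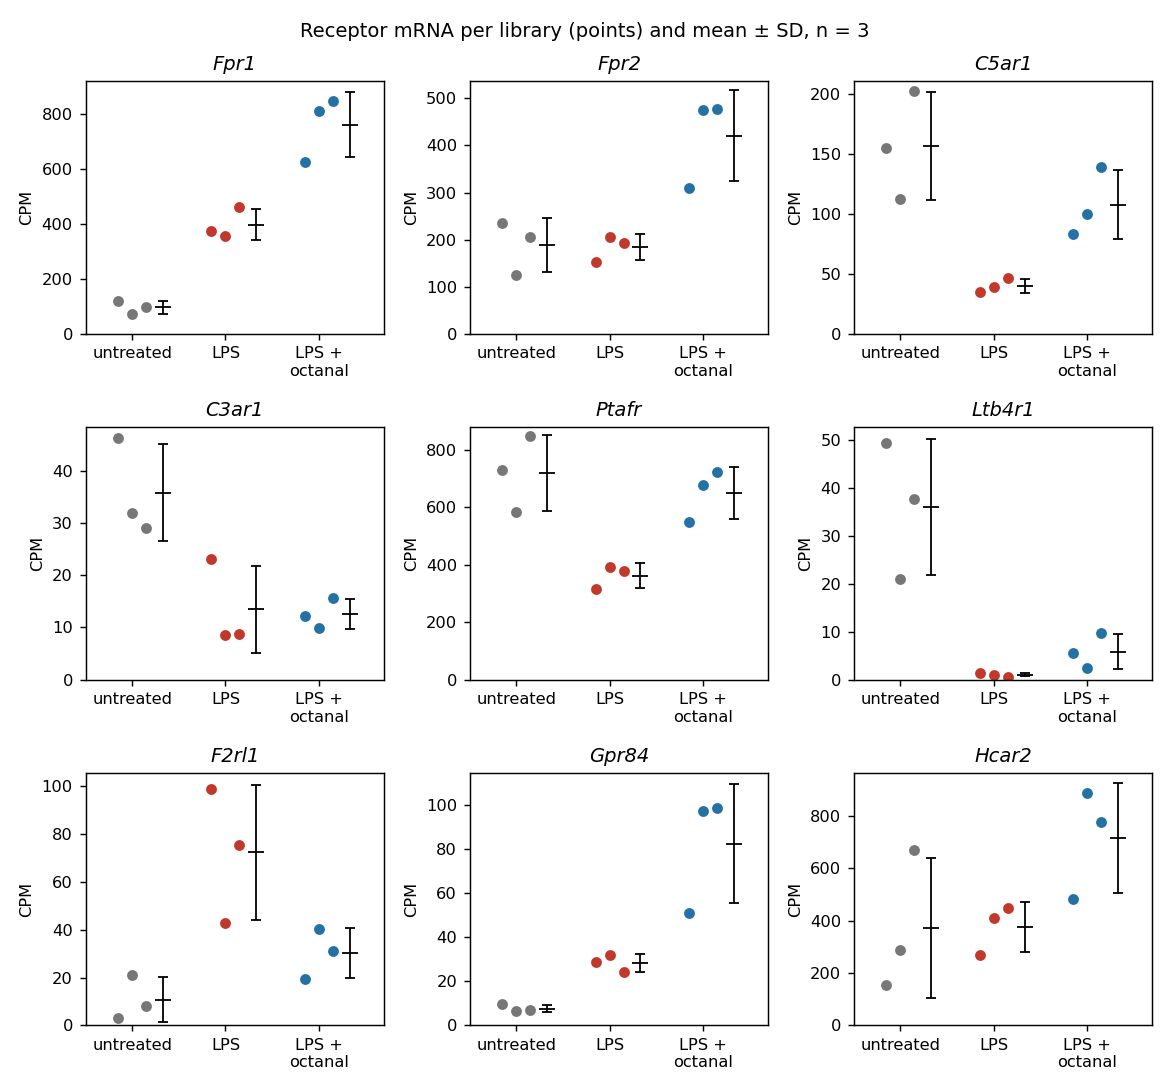
CPM of each receptor in every library (points, linear axes from 0) with the mean and SD of each group of 3 (black). Fpr1 and Gpr84 step up from untreated to LPS and again to LPS with octanal, C5ar1, Ptafr and Ltb4r1 are lowest in LPS libraries, and C3ar1 is low in both treated groups.

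The genes that make, remove or serve as ligands of these receptors were followed in a list of 33, of which 27 were tested. After LPS 9 of these 27 fell and 1 rose, beside 17.6% lower and 15.2% higher of all genes tested. The median log2 fold change was -0.49, beside 0.01 over all genes. Of the 4 leukotriene B4 genes, 3 fell together with its receptor. Alox5, the 5-lipoxygenase that starts leukotriene synthesis, went from 100, 53.0 and 121 CPM to 3.04, 4.23 and 2.93 CPM (log2 fold change -4.75, SE 0.579, edgeR adjusted p = 0.0012, and -3.74 on log2(FPKM + 1)). Its activating protein gene Alox5ap fell by 2.31 and Lta4h, which makes leukotriene B4 itself, by 1.61 on the log2 scale. The untreated and LPS libraries of these 3 genes did not overlap. Cyp4f18, which inactivates leukotriene B4, had a log2 fold change of -0.86 and was not called (edgeR adjusted p = 0.093).

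Of the 5 genes listed as formyl peptide receptor ligands 3 were tested, and 2 of them fell. Anxa1, which encodes annexin A1, went from 1240, 550 and 1120 CPM to 60.7, 60.7 and 47.8 CPM, and Camp, the cathelicidin precursor found in neutrophil granules, from 778, 399 and 690 to 37.7, 32.4 and 38.5 CPM. Both had a log2 fold change of -4.10, at an edgeR adjusted p of 9.1e-04 for Anxa1 and 7.4e-04 for Camp. The third, the serum amyloid gene Saa3, had a log2 fold change of 0.14 with overlapping groups (edgeR adjusted p = 0.93), and Saa1 and Saa2 did not pass the filter on low counts. Cfp, the gene of the complement activator properdin, fell by 1.32 on the log2 scale (edgeR adjusted p = 0.0050).

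**Figure D4:**
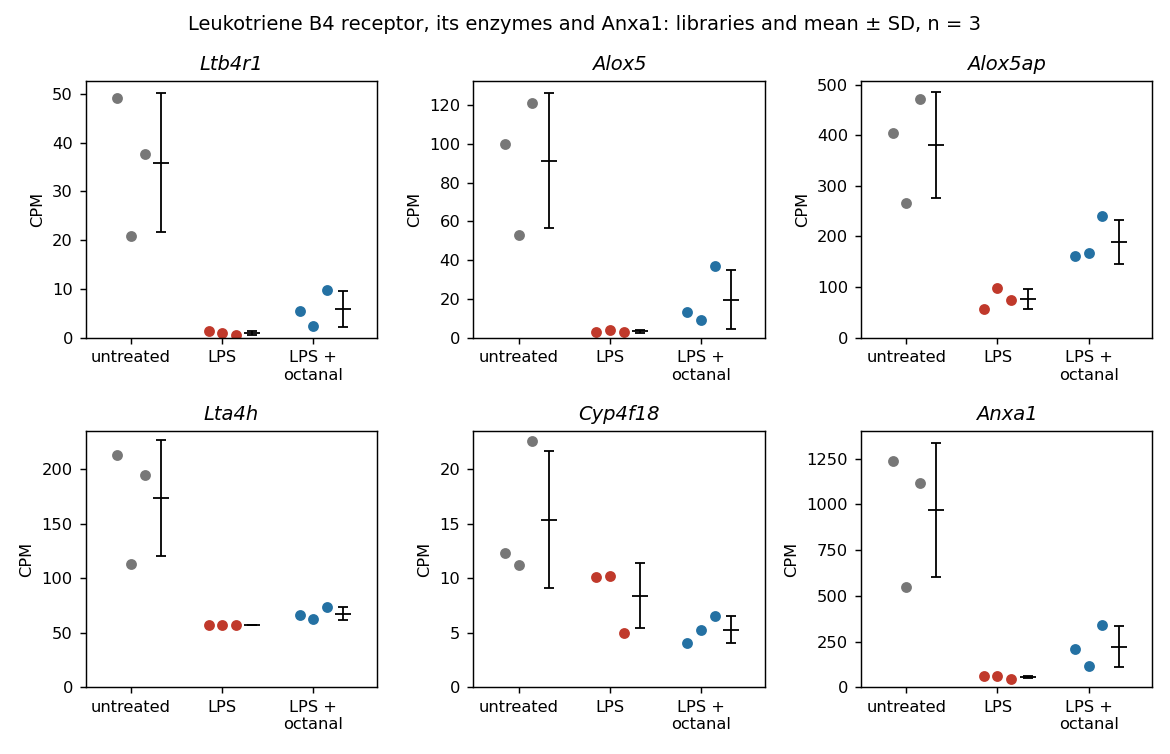
CPM of Ltb4r1, of 4 genes that make or remove leukotriene B4 and of Anxa1 in every library (points) with the mean and SD of each group of 3. In all 6 panels the untreated libraries lie above the LPS libraries. In the Alox5, Alox5ap, Lta4h, Ltb4r1 and Anxa1 panels the LPS with octanal libraries lie between them.

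Related receptors of the same functional classes numbered 54, of which 42 were tested. After LPS 4 of these 42 rose and 11 fell, beside 15.2% and 17.6% of all genes tested, with a median log2 fold change of -0.21. The adenosine receptor gene Adora2a rose by 1.17, while Ffar2, a receptor for short-chain fatty acids, fell by 3.19, S1pr2 (sphingosine 1-phosphate) by 1.28, Gpr35 by 1.67, Adora3 by 2.52 and the purine receptor gene P2ry13 by 2.54 on the log2 scale. On log2(FPKM + 1) the changes of Ffar2, Adora3 and P2ry13 were -1.38, -0.80 and -1.01, and all 3 were still called by limma. In the list of 33 signalling genes, all of them tested, 18 fell and 1 rose, beside 17.6% and 15.2% of all genes, with a median of -0.57. Of 7 G protein subunit genes 5 fell, among them Gng2 (log2 fold change -2.29), Gna15 (-1.33) and Gnaq (-1.16). Arrb1 (-1.25) and Arrb2 (-0.68), whose arrestins switch receptors off, fell too, as did Pik3r6 (-1.37), a regulatory subunit of phosphoinositide 3-kinase gamma. The edgeR adjusted p of these named genes ran from 6.2e-04 for Adora2a to 0.0049 for Arrb2. The calls of all 18 genes named from the 3 lists by the rule were kept when each library was left out in turn.

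LPS with octanal was next set against LPS alone, a comparison in which octanal and longer culture cannot be told apart. Octanal is a known ligand of the olfactory receptor named in the series title. None of the receptors was called when edgeR fitted all 9 libraries: 0 of 9, and 0% of all 15447 genes. In the same fit 6 of the 9 had an unadjusted p under 0.05, all with a higher mean with octanal, beside 22.3% of all genes (13.6% higher). The median log2 fold change of the 9 was 0.94, beside -0.05 over all genes tested. Libraries did not overlap for 8 receptors, 7 higher and 1 lower, and the same held for 18.3% of all genes in the higher and 19.9% in the lower direction.

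The 6 receptors were Gpr84, C5ar1, Ptafr, Fpr1, Fpr2 and Ltb4r1, and their adjusted p lay just above the threshold. Gpr84 stood at 51.2, 97.5 and 98.8 CPM with octanal, all above its LPS libraries, with a log2 difference of 1.54 (95% interval 0.95 to 2.13, edgeR adjusted p = 0.0529). C5ar1 stood at 83.3, 99.9 and 139 CPM, with a difference of 1.42 (0.86 to 1.99, edgeR adjusted p = 0.0537). Its octanal libraries lay above all LPS libraries, and the highest of them above the lowest untreated one.

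Ptafr stood at 548, 676 and 723 CPM, a log2 difference of 0.84 (95% interval 0.45 to 1.24, edgeR adjusted p = 0.058). Fpr1 reached 625, 811 and 845 CPM (0.94, interval 0.48 to 1.39, edgeR adjusted p = 0.062) and Fpr2 310, 475 and 478 CPM (1.19, interval 0.61 to 1.78, edgeR adjusted p = 0.062). Every octanal library of both formyl peptide receptors was above every LPS library. Ltb4r1 had 5.44, 2.39 and 9.71 CPM, from 189, 89 and 295 counts, a log2 difference of 2.51 (interval 1.27 to 3.74, edgeR adjusted p = 0.063). All 3 lay below the untreated libraries and above the LPS libraries, and on log2(FPKM + 1) the difference was 1.38.

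The other 3 receptors were further from the threshold. Hcar2 had 481, 885 and 776 CPM with octanal, each above the LPS libraries, with a log2 difference of 0.93 (95% interval -0.16 to 2.02, edgeR adjusted p = 0.28). F2rl1 was the 1 receptor whose octanal libraries all lay below its LPS libraries, at 19.5, 40.4 and 31.0 CPM (-1.26, interval -2.61 to 0.09, edgeR adjusted p = 0.25). C3ar1 had 12.1, 9.83 and 15.6 CPM, within the range of the LPS libraries (-0.11, interval -1 to 0.78, edgeR adjusted p = 0.89), and its sign turned to 0.56 without LPS replicate 1. LPS with octanal replicate 1 was the lowest of its group for 7 of the 9 receptors, and replicate 3 the highest for 7.

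Whether the 6 receptors passed depended on the test and on the libraries in the fit. The DESeq2 Wald test called these 6, all higher (9.02% of all genes were called higher by it), with adjusted p from 6.4e-06 for Gpr84 to 4.8e-04 for Fpr2. An edgeR fit restricted to the 6 libraries compared called the same 6 (6.35% of all genes higher). In the edgeR fit, 6 members were called when untreated replicate 2 was left out (2.88% of all genes higher) and 5 when LPS with octanal replicate 1 was (3.06% higher). Without untreated replicate 1 it called 1 member, beside 109 of all genes, 104 of them higher. The summed neutrophil, classical monocyte and macrophage markers given above were higher in the same octanal libraries than in the LPS libraries. The summed T cell markers were lower there.

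**Figure D5:**
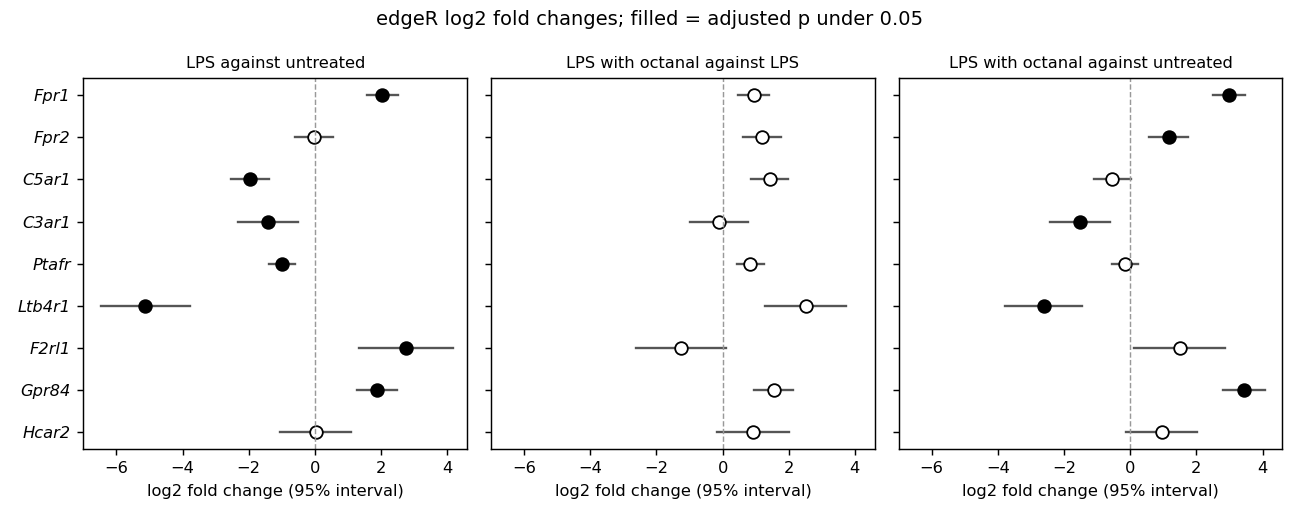
Log2 fold change of each receptor in the 3 comparisons with its 95% interval, filled where the edgeR adjusted p was under 0.05. In LPS against untreated 7 points are filled, in LPS with octanal against LPS 0, and in LPS with octanal against untreated 5.

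Of the 27 tested ligand and enzyme genes 18 had a positive change with octanal, and 0 were called by edgeR, with a median of 0.32 beside -0.05 over all genes. Camp (log2 difference 2.68, edgeR adjusted p = 0.0508), Lpcat2, which makes platelet-activating factor in activated myeloid cells (1.44, 0.0537), Alox5ap (1.3, 0.058), Anxa1 (1.98, 0.058), Alox5 (2.53, 0.060) and C3, the source of C3a (1.32, 0.072), had the lowest p. Without LPS with octanal replicate 3, its highest library, the Alox5 difference went to 1.72, and on log2(FPKM + 1) it was 1.57. In the signalling list 22 of 33 changes were positive (median 0.40, 0 called by edgeR), with the kinase genes Fgr at 1.44 (0.058) and Lyn at 0.89 (0.075), Pik3r6 at 1.2 (0.057), Gnaq at 0.81 (0.057) and Plcb2 at 1.16 (0.075), where the value in brackets is the edgeR adjusted p. At an unadjusted p under 0.05, 12 of the 27 ligand and enzyme genes and 19 of the 33 signalling genes passed, beside 22.3% of all genes. The DESeq2 Wald test called 9 and 16 genes of these 2 lists, beside 1792 of all 15447 genes. Of the 42 related receptors 23 had a positive change (median 0.03, 0 called by edgeR), with S1pr2 (1.00) and P2ry2 (1.02) of lowest p. Of these 42 receptors 12 had an unadjusted p under 0.05, beside 22.3% of all genes. DESeq2 called 6 of them, beside 1792 of all 15447 genes.

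LPS with octanal against untreated asks for the joint change. This comparison shares its libraries with both others, so it is no independent check of them. Fpr1, Gpr84 and Fpr2 were higher and Ltb4r1 and C3ar1 lower, 5 of 9 in all, against 8.67% of all genes tested (2.63% higher and 6.03% lower). The median log2 fold change was 0.95, beside -0.01 over all genes. The largest rise was that of Gpr84, 3.43 on the log2 scale (SE 0.284, edgeR adjusted p = 7.2e-04), which is 10.8-fold. Fpr1 rose by 2.98 (SE 0.215, edgeR adjusted p = 5.2e-04), which is 7.87-fold, and Fpr2 by 1.16 (SE 0.256, edgeR adjusted p = 0.029). The libraries of the 5 called receptors did not overlap between the groups, as was true of 29.8% of all genes.

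Ltb4r1 was lower by 6.16-fold (log2 fold change -2.62, SE 0.516, edgeR adjusted p = 0.020) and C3ar1 by 2.86-fold (-1.52, SE 0.399, edgeR adjusted p = 0.0496). The calls of Fpr1 and Gpr84 were kept when each library was left out in turn, but those of the other 3 were not. Fpr2 lost its call without untreated replicate 3, LPS replicate 2 or 3, or LPS with octanal replicate 2 or 3, and in the fit with a replicate block. Ltb4r1 lost it without untreated replicate 1 or LPS with octanal replicate 1 or 2, and went to -3.21 without replicate 3 of that group. C3ar1 lost it when any single library other than LPS replicate 1 was left out. Fpr2 (edgeR adjusted p = 0.080) and Ltb4r1 (0.0532) also lost it in the fit of the 6 libraries compared.

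Of the other receptors, C5ar1 (log2 fold change -0.54, 95% interval -1.09 to 0.01, edgeR adjusted p = 0.19) and Ptafr (-0.15, interval -0.54 to 0.24, edgeR adjusted p = 0.61) were not called against untreated cells, and their groups overlapped. F2rl1 (1.49, interval 0.12 to 2.86, edgeR adjusted p = 0.15) and Hcar2 (0.95, interval -0.14 to 2.03, edgeR adjusted p = 0.23) overlapped the untreated group too. Leaving out the highest untreated library of each brought it past the threshold: F2rl1 went to 2.43 (edgeR adjusted p = 0.026) without untreated replicate 2, and Hcar2 to 1.72 (edgeR adjusted p = 0.040) without untreated replicate 3. DESeq2 called F2rl1 as well (1.5, adjusted p = 0.0468).

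Among the 27 tested ligand and enzyme genes 2 were higher and 6 lower against untreated cells, with a median of -0.18. Over all genes tested 2.63% were higher and 6.03% lower, the shares to set beside each of the 3 lists here. C3 stood at 458, 209 and 304 CPM in untreated libraries and at 743, 1080 and 1160 CPM after LPS with octanal (a log2 fold change of 1.62, edgeR adjusted p = 0.018), so that it rose while its receptor gene C3ar1 was lower. Lta4h (-1.36), Anxa1 (-2.13), Alox5 (-2.22), Cyp4f18 (-1.53) and Cfp (-1.18) were lower. Without LPS with octanal replicate 3 the Alox5 change went to -3.06. Of the 42 related receptors tested 2 were higher and 6 lower (median -0.23). Adora2a (1.46) and Ccrl2, an atypical receptor that binds chemerin (1.55), were higher, and Gpr35 (-1.32) was among the lower. Without untreated replicate 3 the Ccrl2 change went to 2.14. Of the 33 signalling genes 1 was higher and 5 were lower (list median -0.18). The lower ones included Gna15 (-1.58), and Rgs2 (-0.99) and Rgs18 (-1.56), which speed the shut-off of G proteins. Of the 18 genes named by the rule in this comparison, all called, Adora2a, Lta4h and Gna15 kept the call when each library was left out in turn, and the other 15 lost it at least once.

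Among themselves the receptors fell into patterns over the 9 libraries, given here as Pearson's r of log2 CPM, a description over libraries that share their groups. C5ar1 and Ptafr moved alike (0.98), and both went with Ltb4r1 (0.90 and 0.82). C3ar1 went with Ltb4r1 too (0.83), less with C5ar1 (0.56) and Ptafr (0.42), and against Fpr1 (-0.78) and Gpr84 (-0.71). Fpr1 and Gpr84 moved alike (0.97), and Fpr2 lay between, with 0.71 to Fpr1 and 0.79 to Gpr84. F2rl1 went against C5ar1 (-0.80), Ptafr (-0.77) and Ltb4r1 (-0.90).

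Of all other named genes with at least 10 CPM in their highest group, those with the pattern most like each receptor over the 9 libraries were Ets2 (r = 0.986) and Cxcl1 (0.985) for Fpr1, and Lair1 (0.993) and Nfkbia (0.991) for Gpr84. For Fpr2 they were Kmt5a (0.988) and Slc25a37 (0.982), for C5ar1 Atp8b4 (0.992) and Abhd5 (0.988), and for Ptafr Sypl (0.995) and Plcg2 (0.994). Ltb4r1 was matched most closely by Anxa1 (0.997) and by Cd177 (0.997), a neutrophil surface protein gene whose group means were 722 CPM untreated, 27.1 after LPS and 123 with octanal. C3ar1 was closest to Pxmp4 (0.977) and Rin2 (0.957), F2rl1 to Dffb (0.989) and Ppp4r3a (0.984), and Hcar2 to Gadd45b (0.982) and Zfp729b (0.981). Such r values do not weigh the size of a change. Group means (untreated, LPS, LPS with octanal) were 44.3, 46.0 and 48.6 CPM for Zfp729b and 371, 375 and 714 for Hcar2. For Ppp4r3a they were 119, 140 and 133 CPM, and for F2rl1 10.8, 72.5 and 30.3.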

How the data were processed

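The 9 libraries were prepared with a kit for mRNA, per the labels' protocols. The authors deposited whole-number counts of reads per gene, not normalized, with FPKM beside them, values corrected for gene length and library size, per the file headers. The submitters' processing notes name GRCm38 as the genome. Aligner, counting tool and strand setting were not given in the sources used here. Of the lines of the table, 10 held annotation text without values and were left out, and 22035 of 26770 gene rows carried Ensembl identifiers.

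The main test was that of edgeR 4.0.16 (R 4.3.3) on the counts, using filterByExpr by group, TMM factors (0.923 to 1.07) and quasi-likelihood tests from one model of the 9 libraries, with Benjamini-Hochberg adjustment over 15447 genes. CPM use TMM-scaled totals, and values after ± are SDs over 3 libraries. Intervals of 95% come from the fitted SE, and a call is an adjusted p under 0.05. Between replicates the chi-square per degree of freedom was at least 42.9, so none was a repeat of another. The code was tested on simulated counts. Alternatives were DESeq2 1.42.0, limma 3.58.1 (voom, and log2 FPKM with a pseudocount of 0.1 or 1), other scaling and filters, a replicate block and each library left out in turn. Positions come from GENCODE M21 and promoters from RefSeq (GRCm38.p6).

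The members and the gene lists were chosen with earlier results of these data known. Named genes are the 9 members, the 6 tested genes of lowest p per list and comparison whose higher group averaged 1 CPM or more, and per member the 2 genes of most similar log2 CPM. A gene that the rule names is not reported here.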

Additional observations from a re-analysis of the deposited data

How the results depend on the processing

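In LPS against untreated the count of 7 called receptors stayed at 6 or 7 under every setting run, while the count over all genes (5072) went from 2387 to 5658 when each library was left out. In LPS with octanal against LPS the receptor count went from 0 to 6 with the DESeq2 Wald test, with a filter at 10 CPM in 3 libraries and with edgeR on the 6 libraries compared, to 4 without a filter, 3 on log2(FPKM + 0.1) and 2 without unannotated loci, and was 0 to 6 with each library left out. The count over all genes went from 0 to 1792, 323, 1380, 279, 149 and 118 under the same settings, in that order, and was 0 to 584 with each library left out. It stayed at 0 with limma-voom, DESeq2 size factors, log2(FPKM + 1) and the replicate block. In LPS with octanal against untreated, edgeR on the 6 libraries compared called 3 receptors in place of 5 and 404 genes in place of 1339, DESeq2 called 2810 genes, and with each library left out the ranges were 2 to 5 receptors and 298 to 2137 genes.

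Signs turned only for values near 0 that were not called. Fpr2 in LPS against untreated (-0.04) was 0.01 with limma-voom and 0.06 on both FPKM scales, and -0.29 to 0.12 with each library left out. Hcar2 there (0.02) was -0.02 with DESeq2, with its size factors, without a filter and on the 6 libraries compared, -0.01 with the filter at 10 CPM and without unannotated loci, and -0.40 to 0.76 with each library left out. C3ar1 in LPS with octanal against LPS (-0.11) was 0.04 with the replicate block and -0.32 to 0.56 with each library left out, and Ptafr in LPS with octanal against untreated (-0.15) was -0.29 to 0.01. Same-numbered libraries of different groups correlated at -0.09 to 0.18 in their deviations, over 0.1 in 1 of 9 pairs. In both other groups at once, 0 of 9 libraries correlated best with their own number. Whether same-numbered libraries share an animal or a batch is not stated, and these correlations cannot decide it. The replicate block called 7, 0 and 4 receptors in the 3 comparisons, beside 4257, 0 and 923 of all genes. The cause of these changes was not tested, and counts of 23 to 53 limit the precision of Ltb4r1 in LPS libraries.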
